A study of Mus musculus with 10 samples.

Results

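The expression of 10 genes of the NRF2 pathway and of thiol antioxidant defence was followed in mouse macrophages. They were the rows named Nfe2l2, Keap1, Gclm, Gclc, Txnrd1, Srxn1, Slc7a11, Prdx1, Txn1 and Gsr among the 12535 genes of a deposited RNA-seq table. Macrophages positive for CD45, CD11b and F4/80, surface markers of leukocytes, myeloid cells and macrophages, were sorted from mouse tissue and gave 10 libraries in 3 groups. The cKO-labelled tumour-associated macrophages (TAM, n = 3) came from mice labelled Ahr fl/fl Lys M, in which Cre recombinase expressed from the Lyz2 locus of myeloid cells is meant to delete the floxed aryl hydrocarbon receptor gene. The control TAM (n = 3) came from Ahr fl/fl mice. Both TAM groups came from tumours grown for 14 days in the pancreas after implantation of 10000 cells of MT4, a KPC organoid line that models pancreatic ductal adenocarcinoma in the mouse. The resident macrophages (n = 4) came from the healthy pancreas of C57/BL6 WT mice, which carry no floxed allele, so that tumour and genotype cannot be told apart against this group. The series concerns the receptor's part in tumour macrophages, and no animal ages are given in the sources used here.

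NRF2, the transcription factor that Nfe2l2 encodes, is held in resting cells by KEAP1, an adaptor of a cullin ubiquitin ligase that sends it for degradation. When oxidants or electrophiles modify cysteines of KEAP1, NRF2 accumulates, pairs with a small MAF protein and binds antioxidant response elements in front of genes for glutathione and thioredoxin metabolism. It is thus regulated mainly as a protein, and in macrophages its targets protect cells that make oxidants themselves.

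NRF2 acts through short elements in promoters, and the windows shown are those of members higher in TAM than in resident macrophages that held a match to such an element. RefSeq windows (GRCm38.p6) running from 250 bases before to 50 bases after a gene's start were held for 8 of the 10 members, 10 windows in all, with 3 alternative starts for Txnrd1. Of the windows, 5 are printed here, 5′ to 3′ on the gene's strand. They were picked on both the TAM levels and the matches, so they show no link between the 2. Slc7a11 is included on its levels, without a test. The Txn1 window and the other Txnrd1 windows held no match and are not printed. The Nfe2l2 window held a match and the Keap1 window none, and neither is printed because neither gene was called higher in TAM. Capitals mark every match, on either strand, to TGACNNNGC, the core of the antioxidant response element, or to its variant TGAGNNNGC, which was added to the search after the sequences had been seen.
Gclm promoter, chr3:122245307-122245606, plus strand: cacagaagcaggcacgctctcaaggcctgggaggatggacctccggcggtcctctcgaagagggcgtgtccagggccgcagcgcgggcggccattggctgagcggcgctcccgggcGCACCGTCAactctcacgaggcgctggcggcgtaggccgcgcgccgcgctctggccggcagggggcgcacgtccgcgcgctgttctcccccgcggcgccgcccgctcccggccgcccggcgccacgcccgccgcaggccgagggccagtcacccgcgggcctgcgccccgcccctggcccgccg
Txnrd1 promoter, chr10:82858956-82859255, plus strand: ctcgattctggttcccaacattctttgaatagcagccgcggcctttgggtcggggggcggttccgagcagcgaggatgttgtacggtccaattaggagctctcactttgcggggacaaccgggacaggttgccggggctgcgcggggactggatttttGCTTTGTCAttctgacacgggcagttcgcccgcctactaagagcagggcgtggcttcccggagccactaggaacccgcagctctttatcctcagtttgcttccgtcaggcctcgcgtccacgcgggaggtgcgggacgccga
Srxn1 promoter, chr2:152105274-152105573, plus strand: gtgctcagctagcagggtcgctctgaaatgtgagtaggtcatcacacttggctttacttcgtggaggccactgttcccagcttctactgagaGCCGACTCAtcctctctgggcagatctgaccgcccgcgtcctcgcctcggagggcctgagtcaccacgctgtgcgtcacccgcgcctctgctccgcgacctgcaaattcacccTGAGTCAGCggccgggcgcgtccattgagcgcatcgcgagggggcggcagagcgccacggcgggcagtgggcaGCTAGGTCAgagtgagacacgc
Prdx1 promoter, chr4:116685349-116685648, plus strand: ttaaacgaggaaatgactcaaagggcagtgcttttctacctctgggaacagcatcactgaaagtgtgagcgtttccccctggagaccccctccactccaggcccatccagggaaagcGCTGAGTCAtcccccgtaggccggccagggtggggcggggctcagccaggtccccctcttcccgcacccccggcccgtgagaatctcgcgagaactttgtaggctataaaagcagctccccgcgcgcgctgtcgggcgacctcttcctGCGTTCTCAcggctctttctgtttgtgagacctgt
Slc7a11 promoter, chr3:50443564-50443863, minus strand: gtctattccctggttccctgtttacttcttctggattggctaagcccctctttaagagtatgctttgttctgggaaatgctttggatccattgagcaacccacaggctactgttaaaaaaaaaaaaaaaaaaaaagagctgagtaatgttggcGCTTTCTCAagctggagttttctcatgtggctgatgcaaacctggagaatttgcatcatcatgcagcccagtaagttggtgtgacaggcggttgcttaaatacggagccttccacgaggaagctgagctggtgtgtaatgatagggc

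TGACNNNGC matched in 5 of the 10 windows, each of a different member, and in 12.4% of all 32851 windows of this length. The match was TGACGGTGC in Gclm, with its leftmost base 134 bases before the start, TGACAAAGC in the second of the Txnrd1 windows (92 bases before), TGACTCAGC in Prdx1 (133 bases before), TGACCTAGC in Srxn1 (29 bases after) and TGACTCCGC in Nfe2l2 (240 bases before). The first 4 of these were read on the minus strand of the window. TGAGNNNGC matched in 3 windows, against 17.6% of all windows: Srxn1 held TGAGTCAGC 45 bases before its start and a second match, TGAGTCGGC, 158 bases before, Slc7a11 held TGAGAAAGC 97 bases before, and Prdx1 held TGAGAACGC 16 bases after. In all, 6 members had a match to one or the other form, Txnrd1 with 3 windows in which to match. The share of all windows with either form was not computed, so this count has no background beside it. GCGTG, the core of the element bound by the aryl hydrocarbon receptor and by hypoxia-inducible factors, matched in 7 windows of 5 members, against 32.4% of all windows. No 2 of the marked matches overlap. A match describes the letters and shows no binding.

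Reads were recovered from the FPKM (fragments per kilobase of gene, scaled to library size in a way not stated). Over the genes of the table they summed to 10312706 to 26454579 a library. These sums rest on assumed gene lengths and are approximate. Ahr, the gene meant to be deleted, went against the label: its FPKM was 10.2, 11.2 and 9.65 in the cKO-labelled libraries, 7.11, 6.91 and 7.51 in control TAM and 3.84 to 4.46 in resident macrophages. Reads from exons that Cre leaves in place enter a gene-level value, which therefore cannot test the deletion, and "cKO-labelled" names only the label. Lyz2, at whose locus the Cre is inserted, was lower in the cKO-labelled libraries, at 11238, 11637 and 11505 FPKM, against 19929.5, 19809.6 and 19974 FPKM in control TAM (log2 change -0.80, limma adjusted p = 9.39e-13). All 10 genes of a macrophage marker list were detected, with a summed level of 13041 to 13352 FPKM in cKO-labelled TAM, 11538 to 11816 in control TAM and 19079 to 20285 in resident libraries. Most of that sum was C1qa, C1qb and C1qc. By gene, 3 were higher and 5 lower in cKO-labelled against control TAM, with a median log2 change of -0.10. In control TAM against resident macrophages, 4 were higher and 6 lower. The 12 markers of pancreatic acinar cells summed to 311 to 322 FPKM in cKO-labelled TAM, 82.0 to 86.4 in control TAM, where Amy2a5 was listed at 0, and 25320 to 26968 in resident libraries. Epithelial and tumour markers (10 of 11 in the table) summed to 294 to 304 FPKM in cKO-labelled TAM, 288 to 295 in control TAM and 9.75 to 11.6 in resident libraries. Neutrophil markers (8 of 9) summed to 1622 to 1784 FPKM in cKO-labelled TAM, 1281 to 1308 in control TAM and 359 to 368 in resident libraries. Most of that sum was Retnlg in TAM (mean 1420.3 FPKM in cKO-labelled TAM, 1166 in control TAM and 0.332 in resident macrophages) and Mmp9 in resident libraries (mean 123 FPKM in cKO-labelled TAM, 41.5 in control TAM and 329 in resident macrophages). In bulk libraries fewer cells of a type and less RNA per cell cannot be told apart. All p-values reflect library-to-library spread alone, which may be partly technical. In places it was no wider than read counting allows. For Nfe2l2, all 3 control TAM libraries lay within the exact Poisson 95% interval of replicate 2, 113 to 122 FPKM (counting error only).

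All 10 members passed the filter of at least 1 FPKM in at least 3 libraries. Slc7a11 passed only through its level in TAM, so its difference from resident macrophages is a description and is given without a test. Txn1, Prdx1, Gsr and Nfe2l2 were the 4 most abundant in every group, and Slc7a11 the least. In cKO-labelled TAM the order of mean levels was Txn1 (242 FPKM), Prdx1 (219.7), Gsr (133), Nfe2l2 (133), Txnrd1 (41.3), Keap1 (20.1), Srxn1 (20.0), Gclc (12.2), Gclm (7.02) and Slc7a11 (1.99). Gsr and Nfe2l2 overlapped there between libraries, and so did Keap1 and Srxn1. In control TAM the order was the same but for Srxn1 and Keap1, which changed places and overlapped. In resident macrophages Nfe2l2 (144 FPKM) and Prdx1 (143) came first and overlapped, followed by Txn1 at 81.4 FPKM and Gsr at 25.7 FPKM. Gsr held place 486 of 12535 genes by mean FPKM in cKO-labelled TAM, 459 in control TAM and 2532 in resident macrophages.

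**Figure D1:**
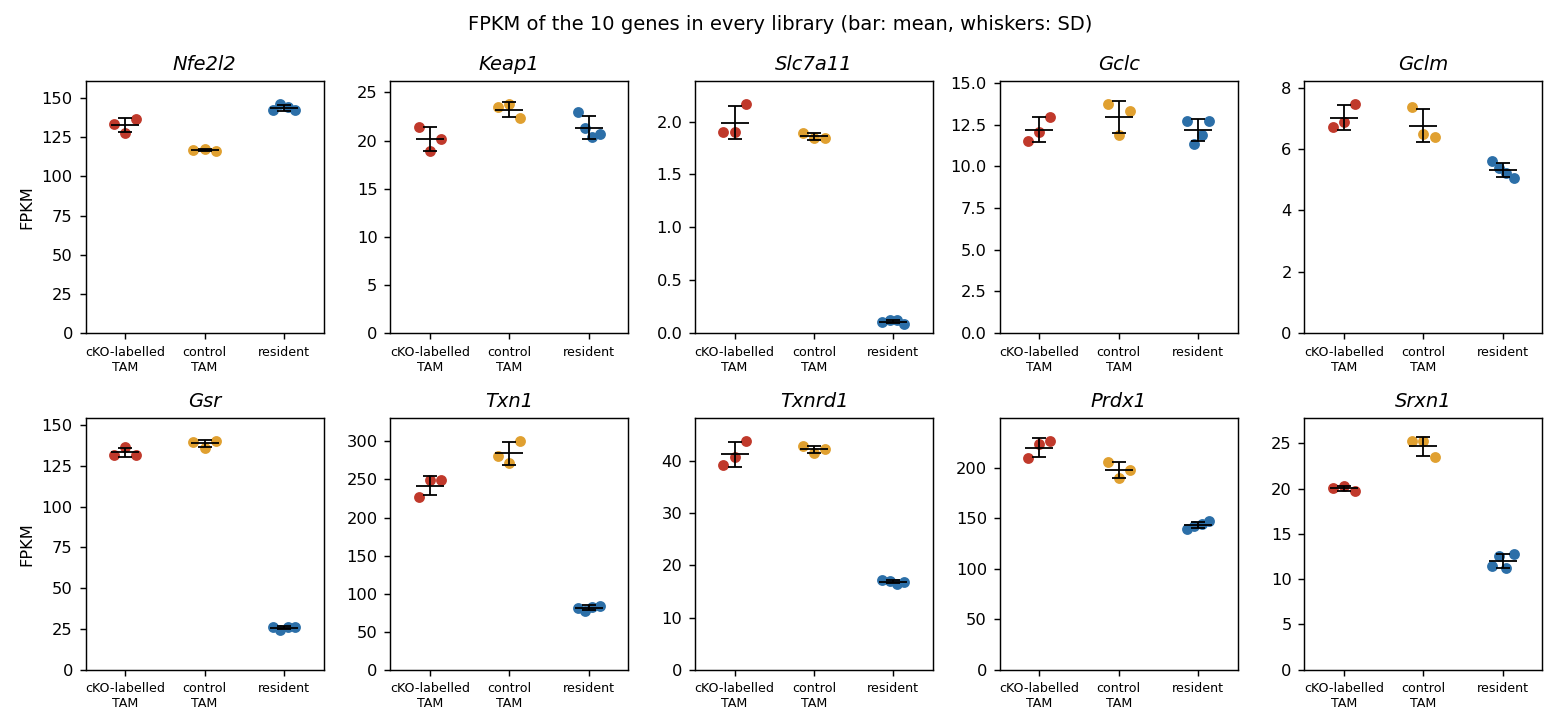
FPKM (vertical axes, from 0) of each of the 10 genes in cKO-labelled TAM, control TAM and resident libraries, 1 point a library, with the group mean and SD. Gsr sits between 132 and 140.5 FPKM in all 6 TAM libraries and between 24.5 and 26.2 FPKM in the 4 resident libraries, while Gclc overlaps across all 3 groups.

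Against resident macrophages, most of the thiol antioxidant genes were higher in control TAM, while the regulator Nfe2l2 was lower. By limma on log2(FPKM + 1) with Benjamini-Hochberg adjustment over 11127 genes at 0.05, of the 9 members other than Slc7a11, 6 rose, 1 fell and 2 did not pass. Of all genes tested, 77.1% were called, 39.0% higher and 38.1% lower, so the share of these members called was near the background. The median log2 change was 0.46 over the 9 members and 0.00 over all genes tested.

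Of the 2 members that form the KEAP1-NRF2 switch, Nfe2l2 fell and Keap1 did not pass. Nfe2l2 (ENSMUSG00000015839, GRCm38 chromosome 2, 75675513 to 75704641, minus strand) had 134, 128 and 137 FPKM in cKO-labelled TAM, 117, 117 and 116 FPKM in control TAM, and 142, 146, 145 and 143 FPKM in resident macrophages. The 3 groups did not overlap, with control TAM lowest and resident macrophages highest. Its log2 change was -0.30 (SE 0.031, limma adjusted p = 2.33e-07) in control TAM against resident macrophages. Keap1 (ENSMUSG00000003308, chromosome 9, 21229730 to 21239361, minus strand) had 21.4, 18.9 and 20.2 FPKM in cKO-labelled TAM, 23.5, 23.8 and 22.3 FPKM in control TAM, and 23.0, 21.3, 20.3 and 20.6 FPKM in resident macrophages. Control TAM and resident libraries overlapped, and the difference of 0.12 (SE 0.054, limma adjusted p = 0.0586) did not pass. It passed without control TAM replicate 3 (adjusted p = 0.0472) and without resident replicate 1 (adjusted p = 0.0144). The kit marks no strand, so reads of Keap1 and of Gm16754, an antisense transcript that overlaps its exons, cannot be told apart.

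Glutathione genes differed from each other in how far they departed from resident macrophages. Slc7a11 (ENSMUSG00000027737, chromosome 3, 49892526 to 50443614, minus strand) encodes the transport subunit of the cystine-glutamate exchanger, which brings in the cystine from which glutathione is made. Its FPKM was 1.90, 1.90 and 2.17 in cKO-labelled TAM, 1.90, 1.84 and 1.84 in control TAM, and 0.101, 0.120, 0.126 and 0.0865 in resident macrophages. Every TAM library was thus far above every resident library. The resident values rest on 12 to 14 reads a library, and the exact Poisson 95% interval of resident replicate 1 ran from 0.0539 to 0.173 FPKM (counting error only). TAM values rest on 291 to 512 reads in cKO-labelled and 172 to 255 reads in control libraries. The ratio of mean FPKM was 17.2 for control TAM over resident macrophages, and the log2 change of 1.37 understates it because 1 is added to each value.

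Gclc (ENSMUSG00000032350, chromosome 9, 77754535 to 77794485, plus strand) and Gclm (ENSMUSG00000028124, chromosome 3, 122245557 to 122270732, plus strand) encode the catalytic and the modifier subunit of glutamate-cysteine ligase, which makes the first bond of glutathione. Gclc had 11.5, 12.1 and 13.0 FPKM in cKO-labelled TAM, 13.8, 11.9 and 13.3 FPKM in control TAM, and 12.7, 11.4, 11.9 and 12.7 FPKM in resident macrophages. All 3 groups overlapped, and its log2 change of 0.08 (SE 0.063, limma adjusted p = 0.236) in control TAM against resident macrophages did not pass. Gclm had 6.71, 6.89 and 7.47 FPKM in cKO-labelled TAM, 7.38, 6.48 and 6.40 FPKM in control TAM, and 5.61, 5.38, 5.21 and 5.06 FPKM in resident macrophages. Both TAM groups lay above the resident libraries. Gclm rose in control TAM by a log2 change of 0.29 (SE 0.067, limma adjusted p = 0.000902). A same-strand pseudogene, Gm6061, and an opposite-strand transcript, Gm17494, overlap Gclm exons, and their reads may be counted with it.

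The subunit ratio, Gclm over Gclc within a library, was compared directly. It was 0.582, 0.570 and 0.574 in cKO-labelled TAM, 0.537, 0.544 and 0.481 in control TAM, and 0.441, 0.473, 0.437 and 0.397 in resident macrophages. The groups did not overlap. The mean ratio was 0.575 ± 0.00578 in cKO-labelled TAM (SD, n = 3), 0.521 ± 0.0346 in control TAM (n = 3) and 0.437 ± 0.0313 in resident macrophages (n = 4). A two-sided exact permutation test on the log2 ratio gave p = 0.0571 for control TAM against resident macrophages and p = 0.0286 for cKO-labelled TAM against resident macrophages, where 0.0286 is the smallest p possible. For cKO-labelled against control TAM the exact permutation p was 0.1, the smallest that 3 against 3 libraries allow. Adjusted over the 3 comparisons, the exact permutation p-values were 0.0857, 0.0857 and 0.1, so none passed.

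**Figure D2:**
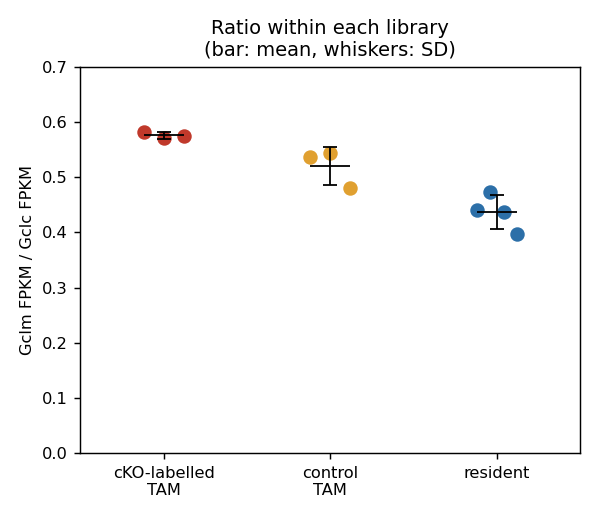
Ratio of Gclm FPKM to Gclc FPKM (vertical axis, from 0) in each library of cKO-labelled TAM, control TAM and resident macrophages, with the group mean and SD. Resident libraries lie between 0.397 and 0.473, and the 6 TAM libraries between 0.481 and 0.582.

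Gsr (ENSMUSG00000031584, chromosome 8, 33652523 to 33698163, plus strand) encodes glutathione reductase, which returns oxidised glutathione to its reduced form. It had 131.8, 137 and 132 FPKM in cKO-labelled TAM, 139.7, 136 and 140.5 FPKM in control TAM, and 26.2, 24.5, 26.1 and 26.2 FPKM in resident macrophages. Every TAM library was far above every resident library. Its log2 change of 2.39 (SE 0.035, limma adjusted p = 3.68e-18) in control TAM against resident macrophages was the largest of the 10 members on this scale, and the ratio of mean FPKM was 5.39.

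The 4 members of the thioredoxin and peroxiredoxin cycle, Txn1, Txnrd1, Prdx1 and Srxn1, each rose in control TAM against resident macrophages. Txn1 (ENSMUSG00000028367, chromosome 4, 57943373 to 57956411, minus strand) encodes thioredoxin, the small disulphide-reducing protein. It had 227, 249 and 249.7 FPKM in cKO-labelled TAM, 281, 271 and 301 FPKM in control TAM, and 81.7, 77.0, 82.6 and 84.2 FPKM in resident macrophages. The 3 groups did not overlap. Control TAM exceeded resident macrophages by a log2 change of 1.79 (SE 0.044, limma adjusted p = 2.50e-15), a ratio of means of 3.50. Txn1 has 1 named pseudogene, whose reads the counting could mix with it.

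Txnrd1 (ENSMUSG00000020250, chromosome 10, 82833951 to 82897712, plus strand) encodes the cytosolic thioredoxin reductase, a selenoprotein that recharges thioredoxin with NADPH. Its FPKM was 39.2, 40.7 and 43.9 in cKO-labelled TAM, 42.8, 41.6 and 42.3 in control TAM, and 17.1, 16.9, 16.5 and 16.9 in resident macrophages. The TAM groups overlapped each other and lay above the resident libraries. The log2 change was 1.28 (SE 0.044, limma adjusted p = 1.86e-13) in control TAM against resident macrophages. For this member alone, the longest annotated transcript did not give whole reads.

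Prdx1 and Srxn1 form a cycle, in which peroxiredoxin 1 reduces hydrogen peroxide and sulfiredoxin repairs the enzyme once it is over-oxidised. Prdx1 (ENSMUSG00000028691, chromosome 4, 116685544 to 116700822, plus strand) had 209, 223 and 227 FPKM in cKO-labelled TAM, 206, 189.9 and 198 FPKM in control TAM, and 139.6, 142, 144 and 147 FPKM in resident macrophages. Srxn1 (ENSMUSG00000032802, chromosome 2, 152105516 to 152111376, plus strand) had 20.0, 20.3 and 19.8 FPKM in cKO-labelled TAM, 25.2, 25.3 and 23.5 FPKM in control TAM, and 11.5, 12.6, 11.2 and 12.7 FPKM in resident macrophages. For both genes the 3 groups did not overlap and resident macrophages were lowest, but Prdx1 was highest in cKO-labelled TAM and Srxn1 in control TAM. In control TAM against resident macrophages, Prdx1 rose by a log2 change of 0.46 (SE 0.036) and Srxn1 by 0.98 (SE 0.053), with limma adjusted p-values of 7.91e-09 and 7.69e-11.

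Marker sums of other cell types differed between the same groups, for acinar, epithelial and neutrophil genes as given above, and their part in the members' differences was not tested. Eosinophil markers (4 of 6 in the table) summed to 73.7 to 77.1 FPKM in control TAM, against 0.641 to 1.22 FPKM in resident libraries, where Prg2 was at 0. Fibroblast markers (8 of 8) summed to 162 to 165 FPKM in control TAM, against 37.5 to 41.2 FPKM in resident libraries. B cell markers (3 of 6) summed to 85.4 to 94.4 FPKM in control TAM, against 875 to 893 FPKM in resident libraries, and dendritic cell markers (4 of 7) to 19.6 to 20.8 FPKM, against 117 to 131 FPKM. T and NK cell markers (7 of 8) summed to 12.5 to 14.8 FPKM in control TAM, against 7.92 to 8.98 FPKM in resident libraries. A dissociation list held 10 immediate early and heat shock genes: Fos, Jun, Junb, Egr1, Atf3, Ier2, Hspa1a, Hspa1b, Hspa8 and Dnajb1. These genes summed to 1998 to 2040 FPKM in control TAM, against 1262 to 1357 FPKM in resident libraries, with 8 higher and 2 lower. Scaling each library to a common FPKM total raised the median of all genes in control TAM against resident macrophages to 0.18 and the share of higher calls among all calls to 65.9%, against 50.6% as deposited. Leaving acinar genes out of that total gave 0.12 and 60.8%. Under both, Keap1 and Gclc also passed as higher, at 0.32 and 0.28 with the common total, which is 0.14 and 0.10 above the median of all genes. Nfe2l2 kept its fall, at -0.09 with the common total, 0.27 below that median, and at -0.16 without acinar genes in it. Gclm was at 0.48 with the common total, against 0.29 as deposited.

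**Figure D3:**
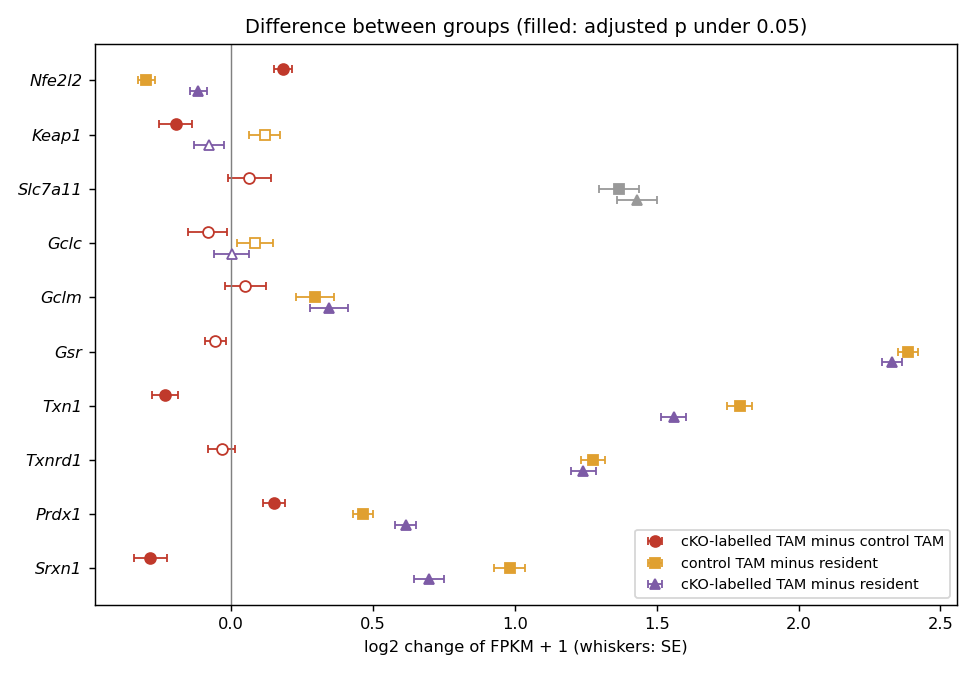
Log2 change of FPKM + 1 (horizontal axis, whiskers 1 SE) of the 10 genes in 3 comparisons, filled where the limma adjusted p was under 0.05; Slc7a11 against resident is grey, a description without a test. The TAM against resident differences reach 2.39 and 2.33 for Gsr, whereas the cKO-labelled against control differences stay between -0.29 and 0.18.

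Between cKO-labelled and control TAM the members moved little and in both directions. Nfe2l2 and Prdx1 rose, Keap1, Srxn1 and Txn1 fell, and Gclm, Gclc, Txnrd1, Slc7a11 and Gsr did not pass. Thus 2 members were higher and 3 lower, where 39.6% of all genes tested were called, 20.5% higher and 19.1% lower. The median log2 change was -0.05 over the members and 0.01 over all genes tested.

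Nfe2l2 averaged 133 ± 4.43 FPKM in cKO-labelled TAM and 117 ± 0.550 FPKM in control TAM (SD, n = 3 each), a log2 change of 0.18 (SE 0.033, limma adjusted p = 0.000457). With libraries scaled to a common total it was 0.10 (adjusted p = 0.0325), and the same without acinar genes in that total (0.10, adjusted p = 0.0311). Keap1, whose product restrains NRF2, averaged 20.1 ± 1.25 FPKM in cKO-labelled TAM and 23.2 ± 0.782 FPKM in control TAM, a log2 change of -0.20 (SE 0.058, limma adjusted p = 0.0140). The Keap1 call was lost without cKO-labelled TAM replicate 2, at -0.15 (adjusted p = 0.0778). The libraries of the 2 groups did not overlap for either gene.

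Srxn1 averaged 20.0 ± 0.271 FPKM in cKO-labelled TAM and 24.7 ± 1.03 FPKM in control TAM, a log2 change of -0.29 (SE 0.057, limma adjusted p = 0.00104). Txn1 averaged 242 ± 12.9 FPKM in cKO-labelled TAM and 285 ± 15.1 FPKM in control TAM, a log2 change of -0.23 (SE 0.047, limma adjusted p = 0.00109). Prdx1 averaged 219.7 ± 9.18 FPKM in cKO-labelled TAM and 198 ± 7.87 FPKM in control TAM, a log2 change of 0.15 (SE 0.039, limma adjusted p = 0.00628). The partners Prdx1 and Srxn1 thus moved in opposite directions, each by less than its own difference from resident macrophages.

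Of the other 5 members, the log2 changes were 0.06 for Slc7a11, 0.05 for Gclm, -0.03 for Txnrd1, -0.06 for Gsr and -0.08 for Gclc. Their limma adjusted p-values ran from 0.251 to 0.615. With libraries scaled to a common total, the Prdx1 rise did not pass, at 0.07 (adjusted p = 0.161), nor with quantile normalization, at 0.10 (adjusted p = 0.0527). The common total instead called Gsr lower, at -0.13 (adjusted p = 0.00816), and moved the share of higher calls among all calls to 32.9%, against 51.8% as deposited. Sums of several marker lists were also higher in cKO-labelled TAM, those of neutrophil and acinar genes as given above. B cell markers summed to 238 to 242 FPKM in cKO-labelled TAM, against 85.4 to 94.4 FPKM in control TAM (3 of 3 genes higher), and dendritic cell markers to 45.9 to 47.0 FPKM, against 19.6 to 20.8 FPKM (2 of 3 tested higher). Eosinophil markers summed to 103 to 106 FPKM in cKO-labelled TAM, against 73.7 to 77.1 FPKM in control TAM (3 of 4 higher), and T and NK cell markers to 19.0 to 19.8 FPKM, against 12.5 to 14.8 FPKM (4 of 7 higher). Fibroblast markers summed to 123 to 128 FPKM in cKO-labelled TAM, against 162 to 165 FPKM in control TAM, but 3 of 6 tested were higher and 2 lower. The dissociation genes summed to 2074 to 2221 FPKM in cKO-labelled TAM, against 1998 to 2040 FPKM in control TAM (4 of 10 higher, 3 lower). The part of all these in the members' differences was not tested.

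Against resident macrophages, Gsr, Txn1, Txnrd1, Srxn1, Prdx1 and Gclm were higher in cKO-labelled TAM and Nfe2l2 was lower, beside a background of 77.4% called, 40.2% higher and 37.2% lower. The resident libraries are shared with the first comparison, so this is not a second, separate result. Gsr differed by a log2 change of 2.33, Txn1 by 1.56, Txnrd1 by 1.24, Srxn1 by 0.70, Prdx1 by 0.61 and Gclm by 0.34. The ratio of mean Slc7a11 FPKM was 18.4, given without a test as above. Nfe2l2 differed by -0.12 (SE 0.031, limma adjusted p = 0.00289). The call was lost when libraries were scaled to a common total (0.02, limma adjusted p = 0.660) and without acinar genes in that total (-0.05, limma adjusted p = 0.167). The median of all genes was then 0.13 and 0.07. Relative to that median Nfe2l2 was at -0.12 and -0.13, against -0.14 as deposited. With quantile normalization the Nfe2l2 change was -0.21 (limma adjusted p = 4.21e-05). Keap1 at -0.08 and Gclc at 0.00 did not pass (limma adjusted p = 0.198 and 0.990).

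Across the 10 libraries, the members' profiles were compared by Pearson's r of log2(FPKM + 1), given as a description, since the libraries form 3 groups that set most of it. Txnrd1 was close to Slc7a11 and to Gsr, with r = 0.998 for each, and Txn1 was nearest to Gsr at 0.994. Gclc was nearest to Gclm at only 0.37, and Keap1 to Srxn1 at 0.30. Nfe2l2 ran against every other member, from -0.45 with Gclc to -0.92 with Srxn1. Among 5045 other genes with a mean of at least 10 FPKM, those most like Nfe2l2 were Bcl7b (0.989), Pltp (0.982) and Clec4a2 (0.981), and 99 genes had an r over 0.95. Those most like Txnrd1 were Daxx, Iigp1 and Stx3, and 1025 genes passed 0.95, so this pattern was common. Slc7a11 was most like Gsto1, Ifi47 and Retnlg, the last of which is also on the neutrophil marker list, and 1017 genes passed 0.95.

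Other genes of the pathway were read from 7 lists holding 107 genes, of which 102 were in the table and 97 were tested. In control TAM against resident macrophages 53 rose, 35 fell and 9 did not pass, and in cKO-labelled TAM against control TAM 28 rose, 27 fell and 42 did not pass. Over all genes tested, the shares were 39.0% higher and 38.1% lower in the first of these comparisons and 20.5% and 19.1% in the second. The list genes' median log2 changes were 0.22 and -0.01, against 0.00 and 0.01 over all genes, and the counts per list below are read beside the same shares. Like Slc7a11, some listed genes passed the filter only through the groups where they were high. Examples are Maff (mean 0.465 FPKM in resident macrophages), Ggt1 (0.155 in control TAM) and Cbs (0.207 in control TAM). The calls of such genes against resident macrophages are counted here but are descriptions only. With libraries scaled to a common total, 13 of the pathway genes were higher in cKO-labelled against control TAM. The same scaling moved the share of higher calls among all calls to 32.9%, against 51.8% as deposited. Pathway genes lower in that comparison ranged from 19 to 39 over all the alternatives.

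Among peroxidases and dismutases, 12 of 15 rose and 3 fell in control TAM against resident macrophages. Prdx6, a peroxiredoxin that also has phospholipase activity, averaged 195 ± 1.55 FPKM in cKO-labelled TAM, 209 ± 5.03 in control TAM and 38.4 ± 1.33 in resident macrophages. Prdx5 and Sod2, the mitochondrial superoxide dismutase, rose in control TAM by log2 changes of 1.78 and 1.76, whereas Cat, catalase, fell by 1.26. Between cKO-labelled and control TAM 3 of the 15 rose and 7 fell, with Prdx4, the peroxiredoxin of the endoplasmic reticulum, at -0.42 and Sod1, the cytosolic superoxide dismutase, at 0.40.

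In the thioredoxin and glutaredoxin list, 10 of 16 rose and 6 fell in control TAM against resident macrophages. Glrx, glutaredoxin, had a log2 change of 2.03, and Txnip, which binds and inhibits thioredoxin, one of -1.81, opposite to Txn1 at 1.79. The methionine sulfoxide reductases split, with Msrb1 at 1.37 and the mitochondrial Msrb2 at -1.22, while both rose in cKO-labelled against control TAM, at 0.46 and 0.45. In that comparison 6 of the 16 rose and 2 fell.

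Glutathione transferases and export genes went mostly the other way from the members, with 6 of 22 higher and 12 lower in control TAM against resident macrophages. Gstm1 and Ephx1, the microsomal epoxide hydrolase, had log2 changes of -2.09 and -2.05, and Gsto1, glutathione transferase omega, one of 1.43. In cKO-labelled against control TAM 8 of the 22 rose and 3 fell, with Ephx1 at 0.31, Gstp1 at 0.31 and Gstm1 at 0.29. Gstm1 and Gstp1 have close copies in the genome, among which reads could be split, so their values are uncertain. Of 13 further genes of glutathione synthesis and cysteine supply, 8 rose and 4 fell in control TAM against resident macrophages. They included Anpep (1.73) and Lap3 (1.48), aminopeptidases, and Slc3a2 (0.29), which encodes the heavy chain that partners Slc7a11. Those counted as lower included Ggt1 and Cbs, which passed the filter through resident macrophages alone. Slc3a2 averaged 127 ± 3.67 FPKM in cKO-labelled TAM, 139.6 ± 3.62 in control TAM and 114 ± 3.19 in resident macrophages. Between the TAM groups 4 of the 13 rose in cKO-labelled TAM and 4 fell.

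The NADPH-making enzymes, which supply the electrons that Gsr and Txnrd1 use, had 7 of 10 higher and 2 lower in control TAM against resident macrophages. Taldo1, Tkt and Pgd of the pentose phosphate pathway were at 1.16, 0.90 and 0.90, and the mitochondrial Idh2 at -1.06. In cKO-labelled against control TAM 1 rose, Idh2 at 0.28, and 4 fell, among them Idh1 at -0.38 and G6pdx, the entry enzyme of that pathway, at -0.28. Of 7 heme and iron targets, 3 rose and 4 fell in control TAM against resident macrophages. Hmox1, heme oxygenase 1, was at 0.59, and Slc40a1, the iron exporter ferroportin, at -3.36. Of these, 3 rose in cKO-labelled against control TAM and 1, Hmox1 at -0.14, fell.

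Regulators beside Nfe2l2 and Keap1 had 7 of 14 higher and 4 lower in control TAM against resident macrophages, with Mafg, a small MAF partner, at 0.34, and Nfe2l1, the related factor NRF1, at -0.52. Those counted as higher included Maff, which passed the filter through TAM alone. In cKO-labelled against control TAM 3 rose and 6 fell. There Nfe2l1 was at -0.29 and Mafg at -0.26, both opposite to Nfe2l2 at 0.18.

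**Figure D4:**
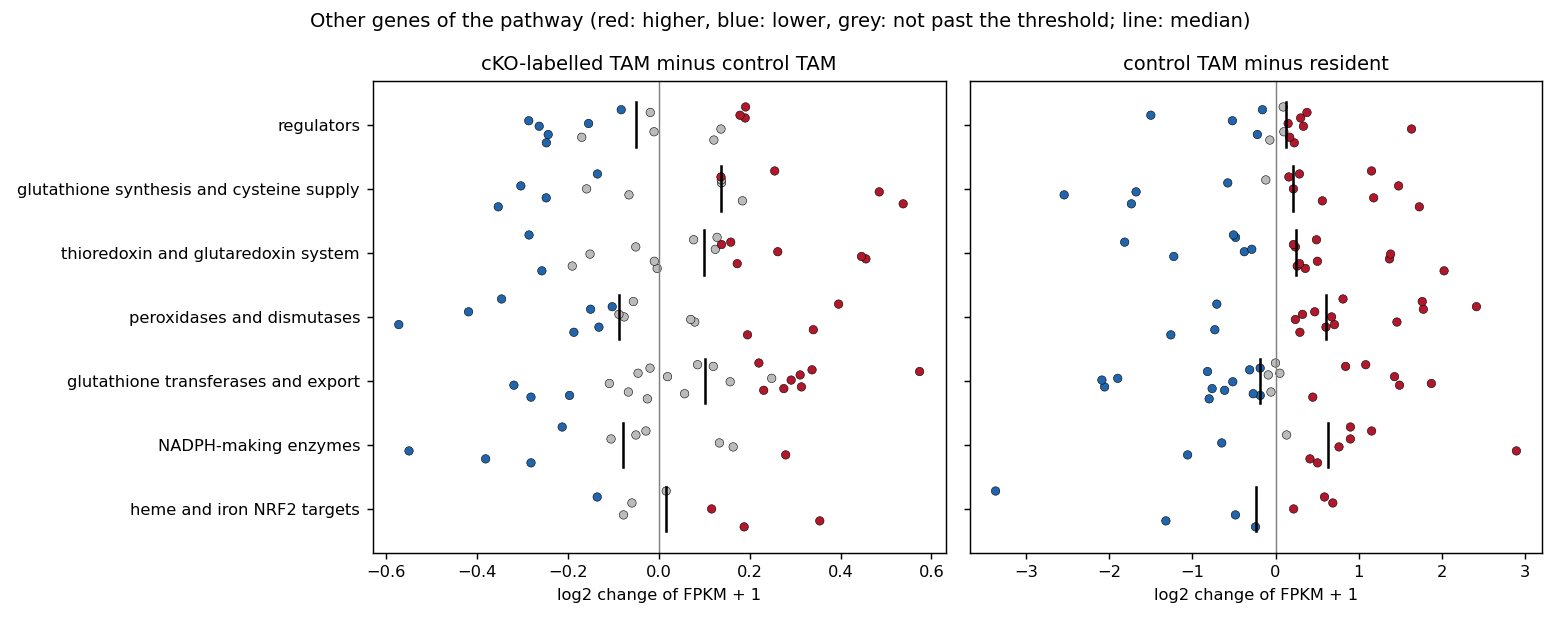
Log2 change of FPKM + 1 (horizontal axes, on different scales) of the 97 tested pathway genes in 7 lists, left for cKO-labelled TAM minus control TAM and right for control TAM minus resident, 1 point a gene, with each list's median as a line. On the right the peroxidase list sits mostly above 0 (12 of 15 higher) and the transferase list mostly below (12 of 22 lower).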

How the data were processed

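RNA-seq of 10 libraries was used as 1 deposited table of FPKM, the authors' fragments per kilobase, and how they scaled the libraries is not stated. RNA was extracted with either of 2 kits, not assigned to samples in the sources used here, then amplified with SMART-Seq v4 and made into Nextera XT libraries, per the labels' protocols. Per the submitters' processing notes, builds mm10 and GRCm38 and the tools STAR and edgeR entered the work; neither versions nor roles are stated, and neither are the gene filter and gene lengths.

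Columns were matched to samples by title, and no 2 libraries held identical values. Symbols missing for 316 genes were looked up by identifier, and 312 were found. Genes with at least 1 FPKM in at least 3 libraries (11127) were fitted with limma 3.58.1 in R 4.3.3, on log2(FPKM + 1) with a variance trend and 3 group means (7 residual degrees of freedom), and p-values were adjusted by Benjamini-Hochberg at 0.05. The fit was tested on simulated data in which few genes changed, equally up and down, with no shift in library composition. That setting differs from these data, where many genes were called, so the test cannot show how the calls fare here. Log2 changes understate low genes. Coordinates come from GENCODE M21 (GRCm38), 1-based. Taking each gene's longest annotated transcript as its length, reads were recovered from the FPKM, and 85.8% to 87.0% of values between 1 and 200 reads came out whole within 0.05 of a read; 9 of the 10 members were within 0.15 in every library. Depth is approximate where that length is not the one the authors used.

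The members, the pathway and marker lists and the tests were chosen with earlier results of these data known. Pathway genes are named by a rule: per list and comparison up to 4 with the largest change among those past the threshold, at a mean of at least 10 FPKM in the higher group and with no overlap of the groups; the text names part of them, picked after their values were seen. Most-like genes were named for Nfe2l2, Txnrd1 and Slc7a11. Alternatives covered the pseudocount, filter, scaling, model, weights, replicate block and each library left out.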

Additional observations from a re-analysis of the deposited data

Results flagged for a closer look

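Gsr in resident macrophages stood out for 1 library. Resident replicate 2 had 24.5 FPKM, while the other 3 resident libraries lay between 26.1 and 26.2 FPKM, so that its gap was 0.920 of the group's range, past the limit of Dixon's test at 95% for 4 libraries. The 10 members and the Gclm to Gclc ratio were examined in this way, and chance flags about 1 in 20 groups. The gap is small beside the TAM levels of 131.8 to 140.5 FPKM.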

How the results depend on the processing

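For the 10 members in 3 comparisons, 657 alternative values were computed, of which 632 kept direction and call, 5 lost the call, 10 gained one and 10 changed sign. The 632 include 21 for Slc7a11 in each comparison with resident macrophages, which are descriptions and not tests. In cKO-labelled against control TAM, 1 member was higher, against 2 as reported, with a common total, with that total less acinar genes and with quantile normalization, as Prdx1 was lost, and 13 pathway genes were higher, against 28, under both totals. The share of higher calls among all calls was 32.9% and 33.0% under these totals, against 51.8% as deposited. In cKO-labelled TAM against resident macrophages, 0 members were lower under both totals and 2 under quantile normalization, against 1. The cause of the sign changes was not tested. Gclm in cKO-labelled against control TAM was at -0.0197 and -0.0191 under the 2 totals. In cKO-labelled TAM against resident macrophages, the common total put Nfe2l2, called lower at -0.12 as reported, at 0.017, and Keap1 at 0.050, and Gclc was at -0.012 with quantile normalization and -0.032 with median-of-ratios scaling. Leaving out each library gave -0.078 to 0.00076 for Txnrd1 in cKO-labelled against control TAM and -0.042 to 0.038 for Gclc in cKO-labelled TAM against resident macrophages.

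Replicate numbers did not pair the libraries: deviations of same-numbered libraries correlated at -0.061 to 0.111, and 3 of 10 libraries correlated best with their own number. With the replicate block, 4342 genes were called in cKO-labelled against control TAM, 8396 in control TAM against resident macrophages and 8437 in cKO-labelled TAM against resident macrophages, against 4410, 8577 and 8612 without it, and the members' counts were 2 and 3, 7 and 1, and 7 and 1 higher and lower, as without it (Slc7a11 included). Depth limits Slc7a11 most, at 12 to 14 reads in each resident library.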
